A study of Homo sapiens with 16 samples.

Results

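The genes described here are 9 transcription factor genes measured in Caco-2 cells. They comprise 4 genes of the CCAAT/enhancer binding protein (C/EBP) family (CEBPA, CEBPB, CEBPD and CEBPG) and 5 regulators of intestinal epithelial genes (CDX1, CDX2, HNF4A, GATA4 and GATA6). They were taken from the arrays by gene name with every probe that was not a control, which gave 15 of 41000 probes and 9 of 27710 named genes. By the brightest probe of each gene, mean levels of CEBPA and CDX2 were lower in cells treated with either enzyme digest than in cells kept in medium. They were also lower than in cells treated with the gliadin peptide p31-43. Another CEBPA probe had a lower mean under p31-43 than in medium or under PT. The brightest CEBPB probe had the same mean level in all groups to within 0.04 on the log2 scale. In the plain model of the 4 groups, of the 6 comparisons only that of PT-G with p31-43 passed the nominal test, for CEBPA (limma, adjusted p = 0.139). That comparison was added after the levels had been seen, and the 4 planned comparisons gave 0. With the run of each array in the model, CEBPA and CDX2 were lower under PT-G than in medium, and lower under both digests than under p31-43. CDX2 was then also lower under PT than in medium (limma, adjusted p = 0.0523), a call that was not made when the slide was the block instead. No CDX2 call, against medium or against p31-43, was made with the period (runs 1 and 2, or 3 and 4) as the block. The CDX2 call for PT against p31-43 was also not made with the slide as the block. In the model with the run, 9.16% of all probes passed for PT-G against medium and 10.3% for PT. Against p31-43 these shares were 9.63% and 8.42%. CDX1 and GATA4 were not well above background on most arrays.

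C/EBP proteins are leucine zipper factors that bind DNA as dimers with each other. C/EBPα is known for stopping cell division and driving differentiation, and C/EBPβ and C/EBPδ for acute phase and inflammatory transcription. In the gut, CDX2 and CDX1 specify and maintain intestinal identity, HNF4α switches on enterocyte genes for lipid and nutrient handling, and GATA4 and GATA6 act with them in intestinal epithelium.

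Caco-2 cells come from a human colon carcinoma and grow as an epithelial sheet. They were used undifferentiated, on day 3 after seeding. All cultures were kept in medium with 1% fetal calf serum (FCS), and were stimulated for 6 h with PT-G, with PT, or with 150 µg/ml of p31-43, or were given medium alone (MED-CTL). The RNA was bulk RNA, in which fewer cells expressing a gene and less RNA per cell cannot be told apart. PT-G is gliadin, a wheat storage protein, digested with pepsin and trypsin, PT is the same enzyme preparation without a protein to digest, and p31-43 is a synthetic gliadin peptide. By the study's methods both enzymes were heat-inactivated after the digestion, and the loss of activity was checked with a trypsin substrate. The labels give no dose of the digests. Each group had 4 cultures from separate experiments that differed in passage, and the RNA of each of the 16 cultures was hybridised to 1 single-colour Agilent array. Cells of every group were detached with trypsin before the RNA was extracted.

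The median intensity of an array lay between 153 and 410, over a local background of 48 to 65, and between 27660 and 33947 spots were well above background. The arrays lay on 5 slides, and the date in the names of their files put them in 4 runs with 1 array of each group. MED-CTL replicate 1 belonged to run 2 and MED-CTL replicate 2 to run 1, and all other arrays had the run of their replicate number. All 10 epithelial markers examined, such as KRT8, EPCAM and CDH17, were well above background on every array. Of markers of other cell types, PTPRC and MS4A1 of leukocytes, CDH5 of endothelium and COL1A2 of fibroblasts were well above background on no array, while 4 of 6 fibroblast, 3 of 6 leukocyte and 2 of 4 endothelial markers were so on all 16. The mean level of the fibroblast markers lay between 7.76 and 8.30 on MED-CTL, 7.72 and 8.17 on p31-43, 7.77 and 8.18 on PT and 7.74 and 8.33 on PT-G arrays.

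A level below is the log2 intensity of a probe after normalization with the quantiles method. Probes differ in brightness, so levels are compared between groups and not between genes. Differences were tested with limma in 1 model of the 4 groups, and a probe counted as changed at a nominal p under 0.01, with the adjusted p over all 40982 probes tested beside it. Each gene is represented by its brightest probe, and other probes are given where they differ. The comparisons of PT-G and PT with p31-43 were added after the levels had been seen, and comparisons with a common group share its arrays.

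**Figure D1:**
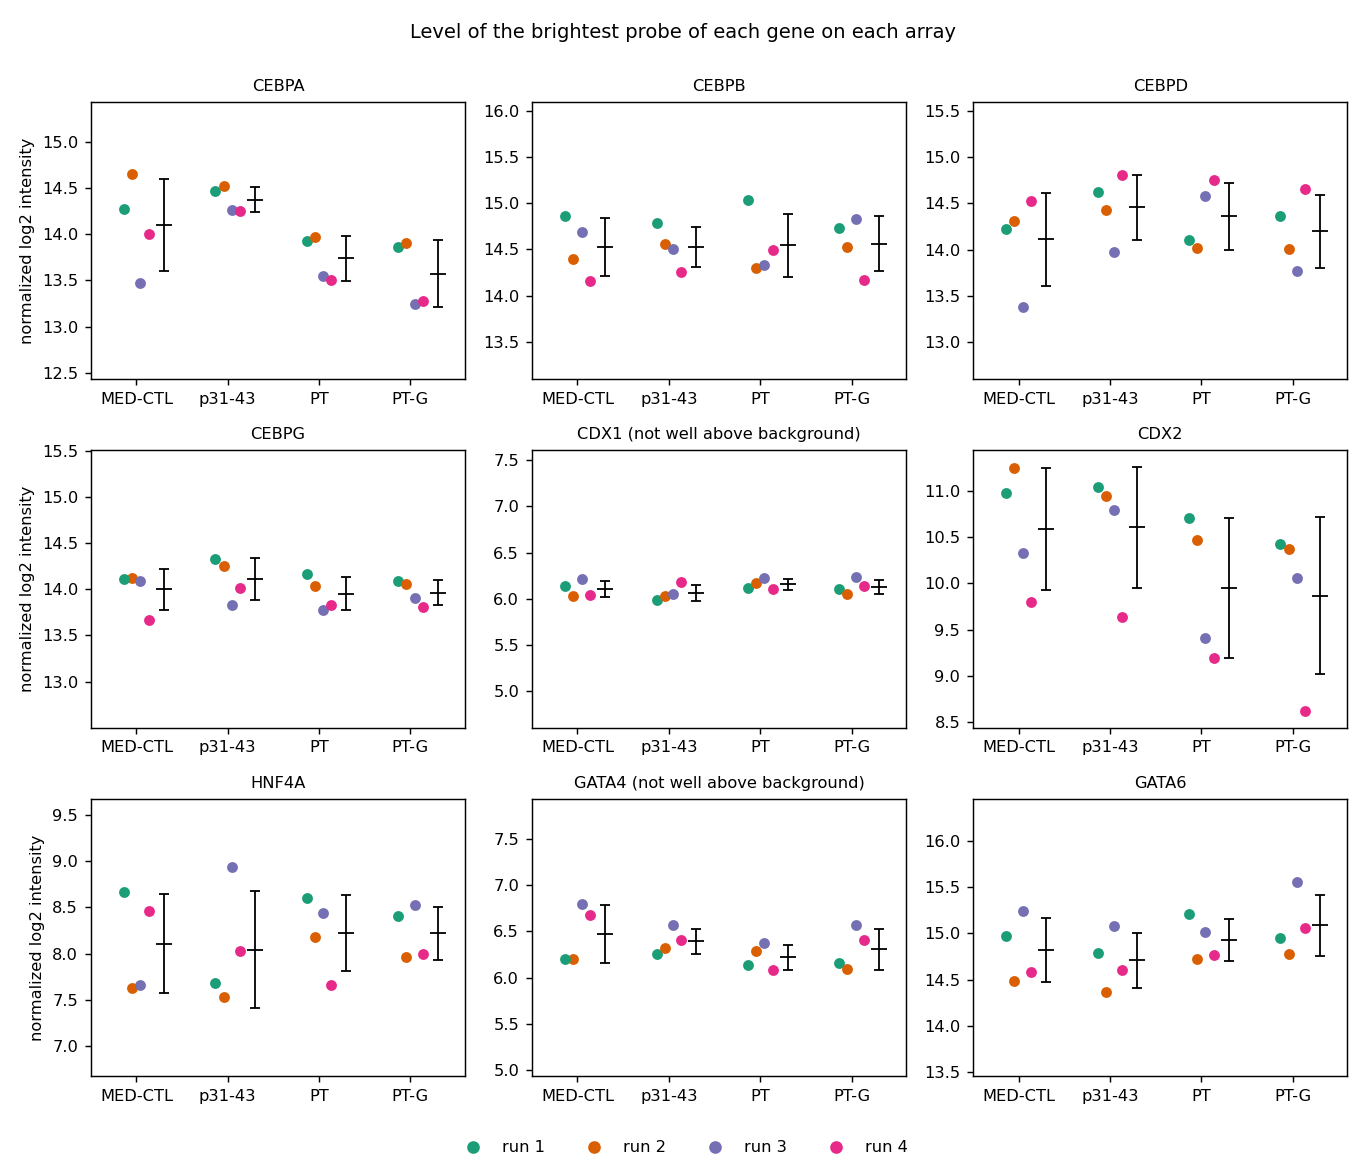
Normalized log2 intensity (vertical axes, each panel spanning at least 3 units) of the brightest probe of each of the 9 genes on the 16 arrays, by group. Points are arrays coloured by run, and black marks are the mean ± SD of 4 arrays. The CEBPA points of PT and PT-G lie below all those of p31-43, and the CDX2 points of runs 3 and 4 lie below those of runs 1 and 2 within each group.

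Start regions are shown for the 3 genes with a probe that was lower in all 4 runs under PT-G and was well above background on every array. They are the 250 bases before each RefSeq start site (GRCh38.p14), 5′ to 3′, at chr19:33302535-33302784 (minus strand) for CEBPA, chr13:27969316-27969565 (minus strand) for CDX2, and chr20:44355449-44355698 and chr20:44400989-44401238 (plus strand) for the 2 start sites of HNF4A. Capitals mark matches, on either strand, to short motifs. The C/EBP motif searched was TTGCNNAA. The CDX motif was TTTAT, which reads ATAAA on the other strand. The HNF4 motif was CAAAGTCCA. The motif of the GATA factors was AGATAA. The TATA box was searched as TATAAA, and it contains the CDX motif on the other strand.
CEBPA: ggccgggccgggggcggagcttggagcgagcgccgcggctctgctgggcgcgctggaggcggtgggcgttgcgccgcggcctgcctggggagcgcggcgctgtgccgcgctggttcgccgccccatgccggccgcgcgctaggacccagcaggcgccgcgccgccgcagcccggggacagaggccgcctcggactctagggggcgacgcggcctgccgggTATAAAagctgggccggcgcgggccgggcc
CDX2: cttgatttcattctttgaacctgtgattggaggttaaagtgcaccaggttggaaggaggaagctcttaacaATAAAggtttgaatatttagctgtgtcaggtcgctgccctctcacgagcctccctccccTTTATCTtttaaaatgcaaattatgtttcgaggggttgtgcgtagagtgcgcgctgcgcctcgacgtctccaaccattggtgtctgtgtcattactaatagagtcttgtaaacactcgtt
HNF4A first start: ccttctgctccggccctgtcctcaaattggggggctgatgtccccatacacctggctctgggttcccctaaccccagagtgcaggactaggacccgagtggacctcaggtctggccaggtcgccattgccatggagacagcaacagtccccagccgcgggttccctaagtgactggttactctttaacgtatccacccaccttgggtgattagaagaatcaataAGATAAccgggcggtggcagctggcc
HNF4A second start: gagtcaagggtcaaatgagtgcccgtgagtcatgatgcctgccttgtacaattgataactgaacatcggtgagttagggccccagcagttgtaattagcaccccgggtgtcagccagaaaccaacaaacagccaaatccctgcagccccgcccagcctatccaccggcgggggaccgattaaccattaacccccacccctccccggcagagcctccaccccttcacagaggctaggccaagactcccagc
The CEBPA window was rich in G and C (81.2% of bases, against 45.2% for CDX2 and 58.4% and 58.0% for HNF4A) and held only TATAAA, 30 bases before the start site, with the CDX letters inside it. The CDX2 window held ATAAA 179 bases and TTTAT 120 bases before the start site, the latter overlapping TTATCT, the GATA letters on the other strand. The first HNF4A window held AGATAA 26 bases before its start site, and the second held no match. Of 35116 RefSeq windows of this length, 10.7% held the TATA box, 32.7% the CDX letters and 9.17% the GATA letters. The C/EBP letters (9.05% of windows) and the HNF4 letters (0.325%) were in none of the 9 windows searched, which belonged to 6 of the 9 genes. A match is a description of letters, and no binding was measured in these samples.

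By its brightest probe CEBPA, which encodes C/EBPα, was lowest under PT-G and highest under p31-43. Its brightest probe (NM_004364, chr19:38483193-38483252 in the files, which name no genome build) had levels of 14.65, 14.27, 13.47 and 14.00 on MED-CTL replicates 1 to 4. The p31-43 arrays had 14.46, 14.52, 14.26 and 14.25, the PT arrays 13.92, 13.97, 13.55 and 13.50, and the PT-G arrays 13.87, 13.90, 13.24 and 13.28. Every p31-43 array was above every PT and PT-G array. MED-CTL overlapped all other groups, with replicate 3 in the range of the digests and replicate 1 above all p31-43 arrays.

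The order of the group means was p31-43 (14.37 ± 0.14, SD, n = 4), MED-CTL (14.10 ± 0.49), PT (13.74 ± 0.25) and PT-G (13.57 ± 0.36), and no neighbours in this order passed the test. CEBPA was 1.44-fold lower under PT-G than in MED-CTL (log2 difference −0.53, SE 0.23, limma, adjusted p = 0.542) and lower in each of the 4 runs, by −0.75 to −0.24 on the log2 scale. Under PT the difference was −0.36 (SE 0.23, limma, adjusted p = 0.733), lower in 3 of 4 runs, and under p31-43 it was 0.28 (SE 0.23, limma, adjusted p = 1.00), higher in 3 of 4. PT-G was lower than PT in 4 of 4 runs, by −0.17 on average (95% confidence interval −0.65 to 0.32). With the run as a block in the model the PT-G difference passed (limma, adjusted p = 0.0251). It also did with the replicate number as a block (limma, adjusted p = 0.0402). The PT difference did not pass with the run as a block (limma, adjusted p = 0.103), but in a model blocked by slide it was −0.42 and passed the nominal threshold (limma, adjusted p = 0.0719). Without MED-CTL replicate 3, the array of lowest CEBPA level in its group, the PT-G difference was −0.73 and passed the nominal threshold without a block (limma, adjusted p = 0.127), the PT difference was −0.57 and the p31-43 difference 0.07. Without MED-CTL replicate 1, the highest array, they were −0.34, −0.18 and 0.46.

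Against p31-43, a peptide given without enzymes, CEBPA was 1.74-fold lower under PT-G (log2 difference −0.80, SE 0.23, limma, adjusted p = 0.139), which passed the nominal threshold. Under PT it was 1.55-fold lower (−0.64, SE 0.23, limma, adjusted p = 0.373), which did not. Both differences were seen in 4 of 4 runs. With the run as a block the adjusted p were 0.00253 and 0.0103 (limma).

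The array carries 3 CEBPA probes of the same accession, and they did not behave alike. The probe nearest the 3′ end, 205 bases beyond the brightest, followed it closely across the 16 arrays (Pearson r 0.98, over arrays that share runs) and differed by −0.45 between PT-G and MED-CTL (SE 0.21, limma, adjusted p = 0.652) and by −0.79 between PT-G and p31-43 (SE 0.21, limma, adjusted p = 0.119), the latter past the nominal threshold. The probe 1531 bases toward the 5′ end correlated less with both (r 0.48 and 0.45). Its level was 16.93, 17.05, 10.19 and 15.81 on MED-CTL replicates 1 to 4, 13.68, 14.74, 10.73 and 14.33 on p31-43, 12.74, 14.66, 14.62 and 14.64 on PT, and 14.56, 14.03, 9.87 and 13.77 on PT-G. The 3 lowest values were those of the 3 arrays on slide 3, which are replicate 3 of MED-CTL, p31-43 and PT-G, while PT replicate 3 lay on slide 5. The other 2 probes showed no such gap on these arrays. With this spread the probe's PT-G difference of −1.93 had an SE of 1.45 (limma, adjusted p = 0.948). MED-CTL and PT-G each had 1 array on each of slides 1 to 4, and PT-G was the lower on each, by −2.89 to −0.31. The probe's p31-43 difference from MED-CTL was −1.62 (SE 1.45), lower in 3 of 4 runs. Its p31-43 mean (13.37) was thus below those of MED-CTL (14.99) and PT (14.17), unlike on the other 2 probes. The cause of the low values on slide 3 was not tested.

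**Figure D2:**
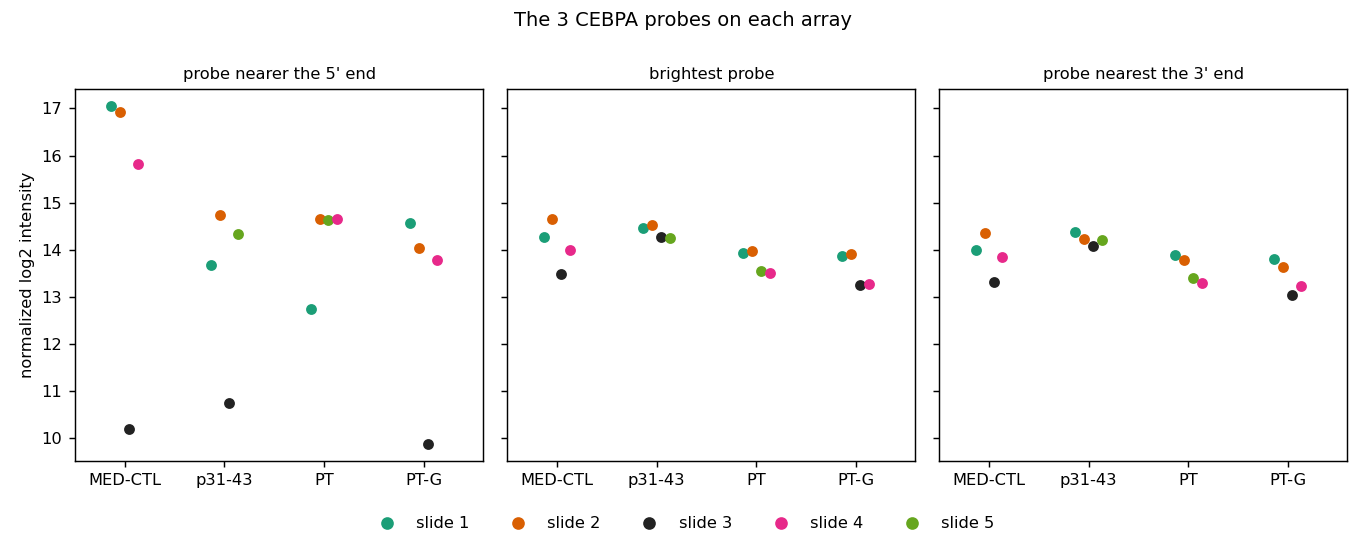
Normalized log2 intensity of the 3 CEBPA probes (panels, from the 5′ to the 3′ side of the transcript) on each of the 16 arrays by group, coloured by slide. On the first probe the 3 arrays of slide 3 lie between 9.87 and 10.73, below all others, and on the other 2 probes they lie between 13.03 and 14.26, with no such gap.

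CEBPB, which encodes C/EBPβ, did not separate the groups. Its brightest probe (NM_005194, 10 spots on each array) had levels of 14.39, 14.86, 14.69 and 14.16 on MED-CTL replicates 1 to 4, 14.79, 14.56, 14.51 and 14.26 on p31-43, 15.04, 14.30, 14.33 and 14.50 on PT and 14.74, 14.52, 14.83 and 14.17 on PT-G. The 4 group means lay between 14.53 and 14.56, with SDs of 0.22 to 0.34. The PT-G difference of 0.04 had a 95% confidence interval of −0.39 to 0.46 in the model of the 4 groups (limma, adjusted p = 1.00). A second, dimmer probe varied more between arrays of 1 group (SD 0.59 to 1.00) and had group means of 9.04 to 9.16.

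CEBPD encodes C/EBPδ, an early factor of the acute phase response. Its level was 14.31, 14.22, 13.38 and 14.53 on MED-CTL replicates 1 to 4, 14.62, 14.43, 13.98 and 14.80 on p31-43, 14.10, 14.01, 14.58 and 14.76 on PT and 14.36, 14.01, 13.76 and 14.65 on PT-G. The groups overlapped throughout. Each p31-43 array was above the MED-CTL array of its run, by 0.12 to 0.59 on the log2 scale, but the mean difference of 0.34 did not pass (SE 0.27, limma, adjusted p = 1.00), and the PT and PT-G differences were 0.25 and 0.08 (SE 0.27 each). In a model blocked by slide the p31-43 difference from MED-CTL was 0.37 and passed the nominal threshold (limma, adjusted p = 0.237). On run 3 the PT array, which lay on another slide than the other 3 arrays of that run, was 1.19 above MED-CTL.

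CEBPG, a small family member that dimerises with the others, varied least of the 4 between arrays, with levels from 13.67 to 14.33 on the 16 arrays and SDs of 0.13 to 0.23 within groups. Its differences from MED-CTL were −0.04 for PT-G, −0.04 for PT and 0.11 for p31-43 (SE 0.13 each), and none passed.

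The difference between CEBPB and CEBPA within an array, which does not depend on a factor common to all probes of the array, was used to ask whether the 2 genes moved unequally. On the log2 scale the CEBPB minus CEBPA value was −0.26, 0.60, 1.22 and 0.16 on MED-CTL replicates 1 to 4 and 0.33, 0.04, 0.25 and 0.01 on p31-43. It was 1.11, 0.33, 0.79 and 1.00 on PT and 0.87, 0.63, 1.59 and 0.89 on PT-G. All PT-G and PT arrays were above all p31-43 arrays, while MED-CTL overlapped both digests. The mean was 0.56 higher for PT-G than for MED-CTL, higher in 4 of 4 runs (2-sided exact permutation test, p = 0.200), and 0.38 higher for PT (exact p = 0.343). It was 0.28 lower for p31-43 (log2 difference −0.28, exact p = 0.486) and differed by 0.19 between PT-G and PT (exact p = 0.543). Adjusted over these 4 comparisons each exact p was 0.543. Against p31-43 it was 0.84 higher for PT-G and 0.65 higher for PT, each with an exact p of 0.0286, the smallest that 4 arrays against 4 can give, which became 0.0857 when adjusted over the 6 comparisons of this exact permutation family.

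CDX2, the caudal-type factor that maintains intestinal identity, had the lowest means in the digest groups. Its 1 probe (NM_001265, chr13:27437036-27437095 in the files) had levels of 11.25, 10.98, 10.33 and 9.80 on MED-CTL replicates 1 to 4 and 11.04, 10.95, 10.79 and 9.64 on p31-43. On PT they were 10.71, 10.47, 9.41 and 9.19 and on PT-G 10.43, 10.37, 10.06 and 8.62. All groups overlapped, and the level also differed between runs. Over the 4 groups, the mean was 10.78 on the 8 arrays of runs 1 and 2 and 9.73 on the 8 arrays of runs 3 and 4, and run 4 held the lowest array of each group.

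Within runs CDX2 was lower under PT-G than in MED-CTL in 4 of 4, by −1.17 to −0.27, and lower under PT in 4 of 4, by −0.92 to −0.27. The mean differences were −0.72 for PT-G (1.65-fold lower, SE 0.48, limma, adjusted p = 0.899) and −0.64 for PT (1.56-fold lower, SE 0.48, limma, adjusted p = 0.797), and neither passed in the model of the 4 groups. Leaving out 1 array gave −0.98 to −0.30 for PT-G, the smallest without PT-G replicate 4, and −0.91 to −0.39 for PT, with −0.39 without PT replicate 4 and −0.42 without MED-CTL replicate 1. In the model blocked by run the standard error was 0.18 and both passed the nominal threshold (limma, adjusted p = 0.0348 for PT-G and 0.0523 for PT). Both also passed with the replicate number as a block, and neither did with the period (runs 1 and 2, or 3 and 4). Blocked by slide, PT-G passed (limma, adjusted p = 0.00798) and PT, at −0.42, did not (limma, adjusted p = 0.116). The p31-43 difference was 0.02 (SE 0.48), with 2 runs higher and 2 lower, and PT-G and PT differed by −0.08 (95% confidence interval −1.11 to 0.96). Against p31-43 CDX2 was lower in 4 of 4 runs under both digests, by −0.74 for PT-G and −0.66 for PT (limma with the run as a block, adjusted p = 0.0295 and 0.0555). These differences were −0.32 without PT-G replicate 4 and −0.41 without PT replicate 4. Blocked by slide, PT-G passed against p31-43 (limma, adjusted p = 0.0146) and PT did not. With the period as the block neither digest passed against p31-43.

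**Figure D3:**
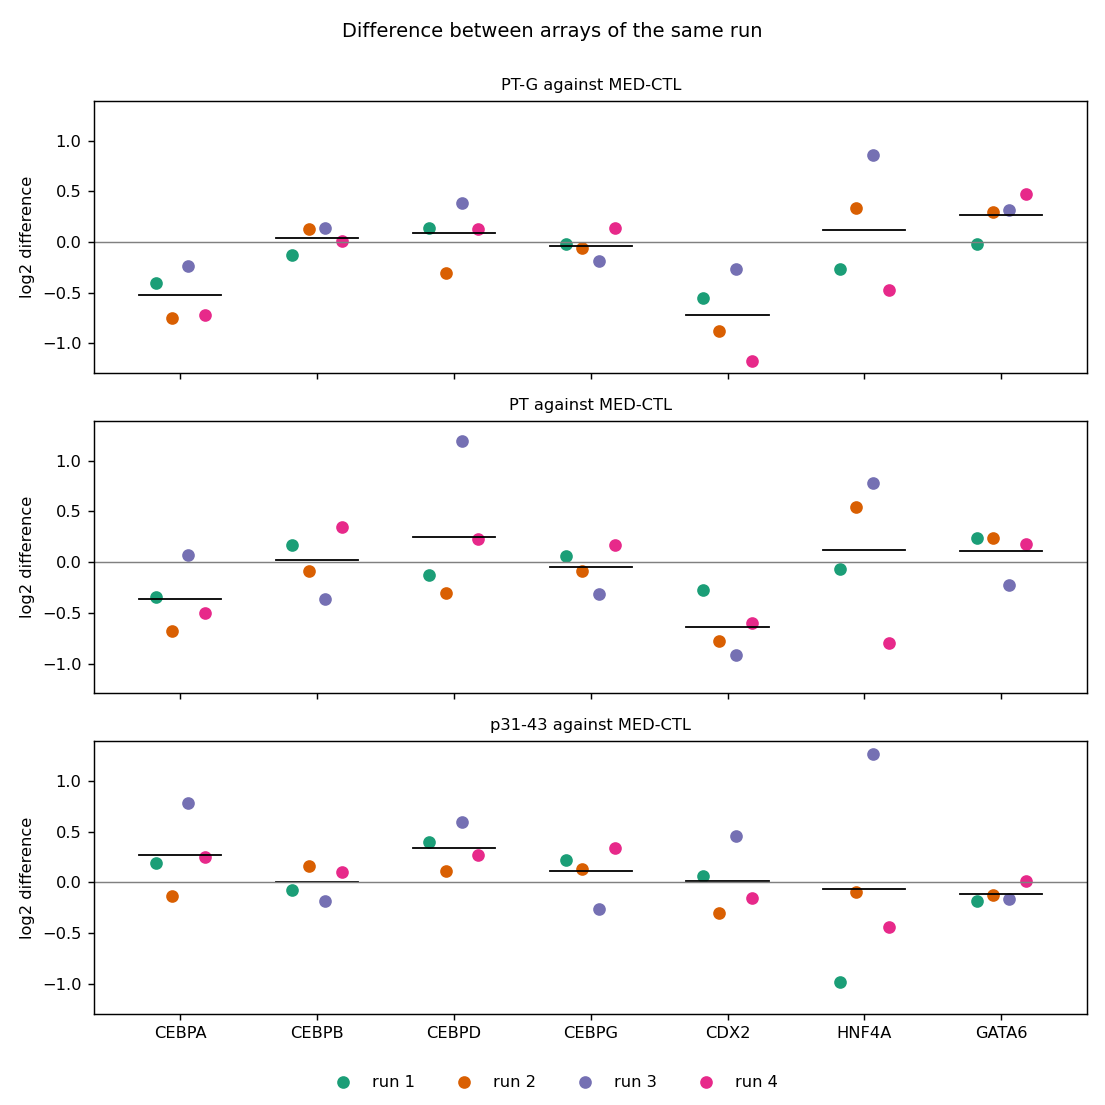
Log2 difference between the treated and the MED-CTL array of the same run (vertical axes) for the brightest probe of the 7 genes well above background on all arrays, in 3 comparisons. Points are runs and black lines are the mean of the 4 runs. CEBPA and CDX2 lie below 0 in all 4 runs under PT-G, and CDX2 also under PT.

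CDX1, the relative of CDX2, was well above background on 1 of 16 arrays, a PT-G array, so it is given no fold change. Its intensities were of the same size in all groups, between 5.99 and 6.23 on the log2 scale.

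HNF4A encodes a nuclear receptor of liver and gut epithelium and had 3 probes, all well above background on every array and all dim, that did not move alike. The brightest carries the accession AK096973 and lies 49819 bases before the probe of NM_178850 and 72549 bases before that of NM_000457 in the files' coordinates. Its level was 7.63, 8.67, 7.66 and 8.46 on MED-CTL replicates 1 to 4, 7.68, 7.54, 8.94 and 8.02 on p31-43, 8.60, 8.18, 8.44 and 7.67 on PT and 8.40, 7.96, 8.52 and 7.99 on PT-G. The arrays of 1 group were spread over up to 1.40 units, and the PT-G difference from MED-CTL was 0.11 (SE 0.32, limma, adjusted p = 1.00), higher in 2 runs and lower in 2.

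The NM_000457 probe of HNF4A had 8.10, 8.06, 7.90 and 7.30 on MED-CTL, 8.22, 7.78, 8.02 and 7.05 on p31-43, 7.92, 7.64, 6.96 and 7.06 on PT and 7.80, 7.69, 7.62 and 6.69 on PT-G. It was lower than MED-CTL in 4 of 4 runs under PT-G and under PT, like CDX2, and here too run 4 gave the lowest array in 3 of the 4 groups. The mean differences were −0.39 for PT-G and −0.44 for PT (SE 0.31 each), and they did not pass with the run as a block either (limma, adjusted p = 0.191 and 0.113). In a model blocked by slide the PT-G difference did pass (limma, adjusted p = 0.0190). The NM_178850 probe, whose coordinates span 6278 bases where those of the other 14 probes span 60, differed by −0.22 and −0.11 from MED-CTL (SE 0.18 each). It was lower than p31-43 in 4 of 4 runs under PT-G, by −0.42 on average (SE 0.18), and under PT, by −0.31 (SE 0.18). Both passed the nominal threshold with the run as a block (limma, adjusted p = 0.0306 and 0.119) and not in the model of the 4 groups.

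GATA6, a zinc finger factor of intestinal epithelium, had its highest mean under PT-G. Its level was 14.48, 14.97, 15.24 and 14.59 on MED-CTL replicates 1 to 4, 14.79, 14.36, 15.08 and 14.60 on p31-43, 15.21, 14.72, 15.01 and 14.77 on PT and 14.95, 14.78, 15.55 and 15.06 on PT-G, and all groups overlapped. The difference from MED-CTL was 0.26 under PT-G (SE 0.21, limma, adjusted p = 0.960), higher in 3 of 4 runs, and 0.11 under PT. Blocked by slide, the PT-G difference from MED-CTL passed the nominal threshold (limma, adjusted p = 0.0607). Against p31-43 the PT-G level was 0.38 higher (SE 0.21, limma, adjusted p = 0.712), in 4 of 4 runs, and passed the nominal threshold with the run as a block (limma, adjusted p = 0.0560).

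GATA4 has 2 probes, which were well above background on 7 and 6 of the 16 arrays, spread over all groups. Their log2 intensities lay between 6.08 and 6.79, and no fold change is given.

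Over all 15 probes, the number past the nominal threshold in the model of the 4 groups was 0 between PT-G and MED-CTL (1 if the threshold was 0.05), where 3.44% of all probes tested passed, and 0 for PT against MED-CTL (0 at 0.05), where 3.64% passed. For p31-43 compared with MED-CTL and for PT-G against PT it was 0 as well (0 at 0.05 in both), where 0.388% and 0.0903% of all probes passed. Among the 15 probes, 2 passed between PT-G and p31-43, both of CEBPA, against 3.73% of all probes, and between PT and p31-43 0 passed (2 at 0.05), against 3.15%. Without MED-CTL replicate 3 the count for PT-G against MED-CTL was 3, and that of all probes was 1680, against 1408 with it. No member probe had an adjusted p under 0.05 in these 6 comparisons (limma).

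With the run as a block more probes passed over the whole array too. For PT-G against MED-CTL, 3 of 15 did (2 of CEBPA and that of CDX2), with 9.16% of all probes, and for PT against MED-CTL 1 did (CDX2), with 10.3%. None did for p31-43 against MED-CTL or PT-G against PT (limma), with 1.38% and 0.317% of all probes. Against p31-43, 5 passed for PT-G (2 of CEBPA, CDX2 and 1 of HNF4A lower, GATA6 higher) and 4 for PT (2 of CEBPA, CDX2 and 1 of HNF4A, all lower), with 9.63% and 8.42% of all probes. The replicate number as a block, which differs from the run for MED-CTL replicates 1 and 2 alone, gave 3 for PT-G against MED-CTL (7.59% of all probes), 1 for PT against MED-CTL (8.49%), 1 for p31-43 against MED-CTL (1.05%, the CEBPA probe nearest the 3′ end, 0.35 higher, limma, adjusted p = 0.915), 0 for PT-G against PT (0.232%), 3 for PT-G against p31-43 (8.07%) and 3 for PT against p31-43 (7.01%). Of the 16 markers of other cell types, none passed between either digest and MED-CTL in the model of the 4 groups (limma). Blocked by run, 1 fibroblast marker was higher, PDGFRB by 0.51 under PT-G and 0.35 under PT, and 1 was lower, COL3A1 by −0.45 and −0.52, and their part in the results was not tested.

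Groups without overlap were seen for 0 of 15 probes between PT-G and MED-CTL, PT and MED-CTL, p31-43 and MED-CTL, or PT-G and PT, where 3.87%, 5.08%, 1.39% and 0.632% of all probes had none. Between PT-G and p31-43 and between PT and p31-43, 2 of 15 did not overlap, the same 2 CEBPA probes, against 5.8% and 5.91% of all probes. Lower in all 4 runs than MED-CTL were 6 of 15 under PT-G (3 of CEBPA, CDX2, and 1 each of HNF4A and GATA4, the last not well above background) and 2 under PT (CDX2 and 1 of HNF4A), where 14.9% and 13.5% of all probes were. The median log2 difference of the 15 probes was −0.07 for PT-G and −0.04 for PT, and that of all probes tested was −0.01 in both.

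**Figure D4:**
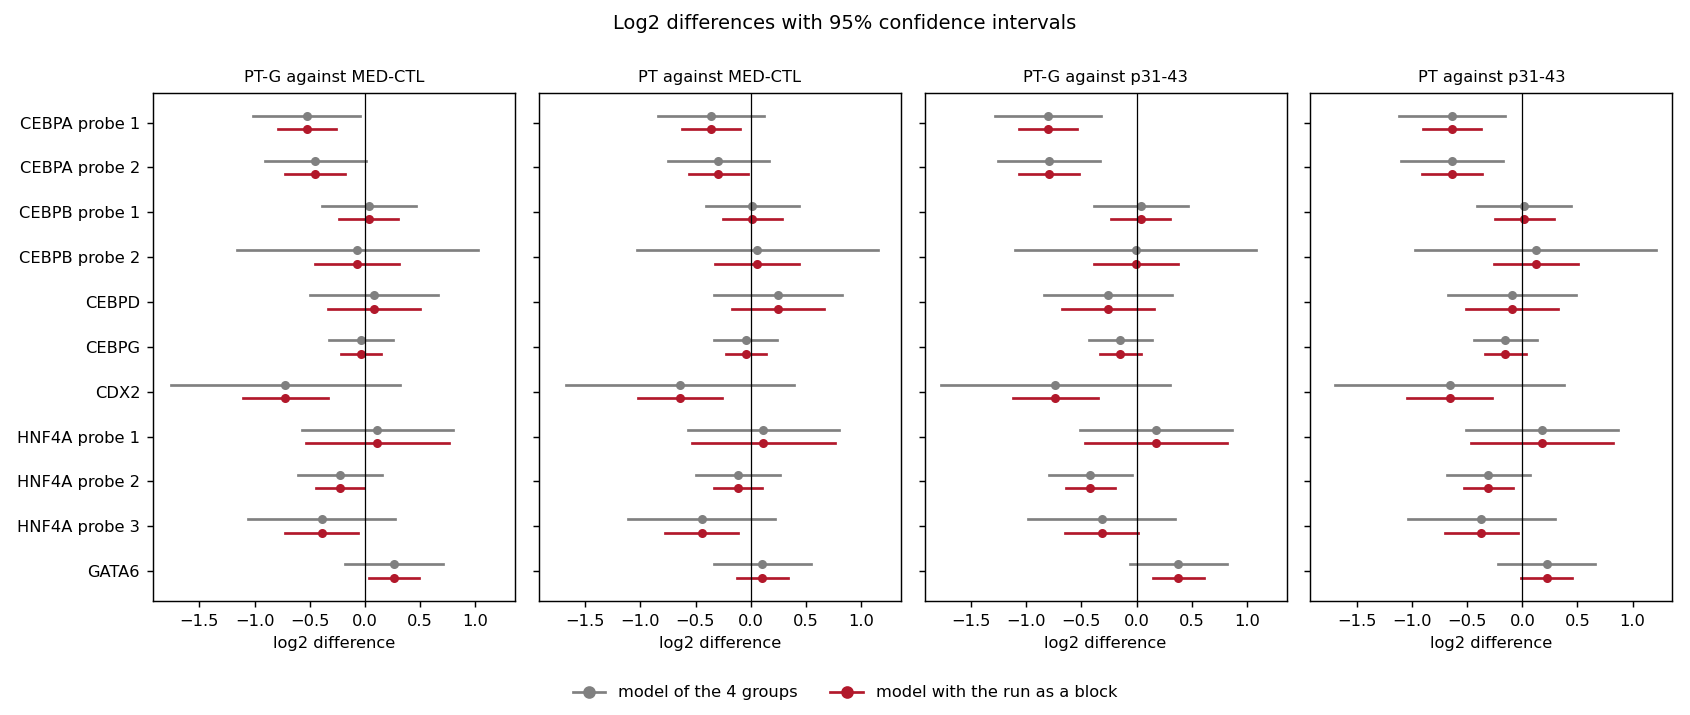
Log2 differences (horizontal axes) of 11 probes that were well above background on all arrays, with 95% confidence intervals from the model of the 4 groups (grey) and from the model with the run as a block (red), in 4 comparisons. The CEBPA probe with the gap on slide 3 is left out because its interval spans −5.04 to 1.17 for PT-G. The 4 intervals of CDX2 exclude 0 only with the run as a block, and those of both CEBPA probes exclude 0 in both models against p31-43.

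Across the 16 arrays, after the mean of each run was subtracted, CEBPA went with CDX2 (r 0.82, plain r 0.75) and against GATA6 (r −0.79, plain r −0.69). CEBPA and CEBPB were nearly unrelated (r −0.25), as were CEBPA and the brightest HNF4A probe (r 0.03). CEBPG and that HNF4A probe went against each other (r −0.76, plain r −0.41). These values describe 16 arrays that share runs, slides and treatments.

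The wider network of these factors was examined with 4 lists of other genes. Among 9 relatives and regulators of C/EBP proteins, 1 was higher and 0 lower under each digest at a nominal p under 0.01, beside 2.17% of all named genes higher and 1.84% lower under PT-G, and 1.98% higher and 2.18% lower under PT. The gene was TRIB1, a pseudokinase that targets C/EBPα protein for degradation. It was 2.46-fold higher under PT-G (log2 difference 1.30, SE 0.13, limma, adjusted p = 0.00034) and 2.20-fold higher under PT (1.14, SE 0.13, limma, adjusted p = 0.00108), with mean levels of 14.13 ± 0.17 for MED-CTL, 14.06 ± 0.19 for p31-43, 15.26 ± 0.25 for PT and 15.43 ± 0.10 for PT-G. A second TRIB1 probe gave 1.33 and 1.08. In the model blocked by run 3 of the 9 were higher and 1 lower under each digest, beside 5.29% of all named genes higher and 4.76% lower under PT-G, and 5.16% and 5.85% under PT. They included TRIB3, a relative of TRIB1 (0.48 under both), NFIL3, a leucine zipper repressor (0.41 and 0.42), and, lower, ATF5, another leucine zipper factor (−0.41 and −0.56). The median of the list was 0.08 for PT-G and 0.01 for PT, against −0.01 for all named genes in both.

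Among the 22 other gut transcription factors reported here, 2 were higher and 0 lower under each digest. Of all named genes, 2.17% were higher and 1.84% lower under PT-G, and 1.98% and 2.18% under PT. PPARA, a lipid-sensing nuclear receptor, was higher by 0.91 under both digests (SE 0.13, limma, adjusted p = 0.00390 and 0.00424), and KLF5, a factor of dividing crypt cells, by 0.83 and 0.74 (SE 0.14, limma, adjusted p = 0.0110 and 0.0238). Blocked by run, 7 were higher and 1 lower under PT-G, beside 5.29% and 4.76% of all named genes. Under PT 5 were higher and 3 lower, beside 5.16% and 5.85%. Among these factors KLF4, a factor of goblet cells, differed by 1.00 and 0.57, ELF3, an epithelial factor, by 0.75 and 0.83, and FOXA1, a forkhead factor, by −0.37 and −0.54. A PPARA probe that was dimmer gave 0.14 and 0.11, and the other 2 moved up with the brightest. The list's median was 0.12 for PT-G and 0.05 for PT.

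Of 24 enterocyte genes, 1 was higher and 0 lower under each digest (2.17% of all named genes higher under PT-G and 1.98% under PT). This was KRT20, a keratin of mature intestinal cells, by 0.63 under PT-G (SE 0.12, limma, adjusted p = 0.0251) and 0.50 under PT (SE 0.12, limma, adjusted p = 0.0884). The other 23, among them SI, ALPI, FABP1, APOA4 and VIL1, did not pass in the model of the 4 groups, and the list's median was 0.00 under PT-G and 0.05 under PT. In the model blocked by run MUC13, a mucin of the cell surface, was also higher (0.50 and 0.53), and VIL1, of the microvillus core, was lower under PT (−0.20). A second VIL1 probe gave −0.09 under PT and did not pass in that model. Of the 10 epithelial markers, 2 were higher under each digest in the model of the 4 groups, beside the same shares of all named genes. These 2 were KRT20 and the tight junction gene CLDN3 (0.25 and 0.34).

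Of 24 genes known as C/EBP targets, 0 were lower under either digest, beside 1.84% of all named genes under PT-G and 2.18% under PT. Higher were 4 under PT-G and 5 under PT, beside 2.17% and 1.98% of all named genes. They were CDKN1A, a cell cycle inhibitor (1.22 and 1.34, SE 0.27, limma, adjusted p = 0.0464 and 0.0315, with 0.31 and 0.52 on a second probe that did not pass), PTGS2, the inducible cyclooxygenase (0.96 and 0.77, SE 0.22, limma, adjusted p = 0.0696 and 0.181), the cytokines IL8 and IL6, and, under PT, the chemokine CXCL1 (1.41, SE 0.45, limma, adjusted p = 0.240). On all 16 arrays 15 genes of the list gave a signal well above background, and 2 did so on no array. IL8 was well above background on no MED-CTL array and on all PT-G and PT arrays. It was at least 1.72-fold higher under PT-G and at least 1.69-fold under PT (limma, adjusted p = 0.0126 and 0.0172), where each MED-CTL array entered with its own IL8 signal or, if higher, with the dimmest signal that was still well above background there. This rule left the MED-CTL mean at its measured 6.04, so these bounds equal the measured folds. IL6 was well above background on 1 MED-CTL, 4 PT-G and 2 PT arrays and had mean levels of 6.17, 6.41 and 6.41, so it is counted as higher although 3 of 4 MED-CTL arrays give only a bound. Blocked by run, 5 targets were higher and 0 lower under each digest, with CXCL1 added under PT-G (1.31). In that model 5.29% of all named genes were higher and 4.76% lower under PT-G, and 5.16% and 5.85% under PT. The brightest probes of SAA1, ORM1, CRP, FGA and ALB, acute phase and liver-type targets, did not pass. A second SAA2 probe, well above background on 3 of 16 arrays, passed as lower under PT (limma, adjusted p = 0.143) and is given no fold change. No C/EBP activity was measured in these samples. For p31-43 against MED-CTL 0 genes of the 4 lists passed by their brightest probe (limma), beside 0.123% of all named genes higher and 0.296% lower. A second probe of MUC2, a secreted mucin, passed, with a difference of −0.41 (SE 0.12, limma, adjusted p = 1.00) in 4 of 4 runs, while the brightest gave −0.39 with an SE of 0.45.

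**Figure D5:**
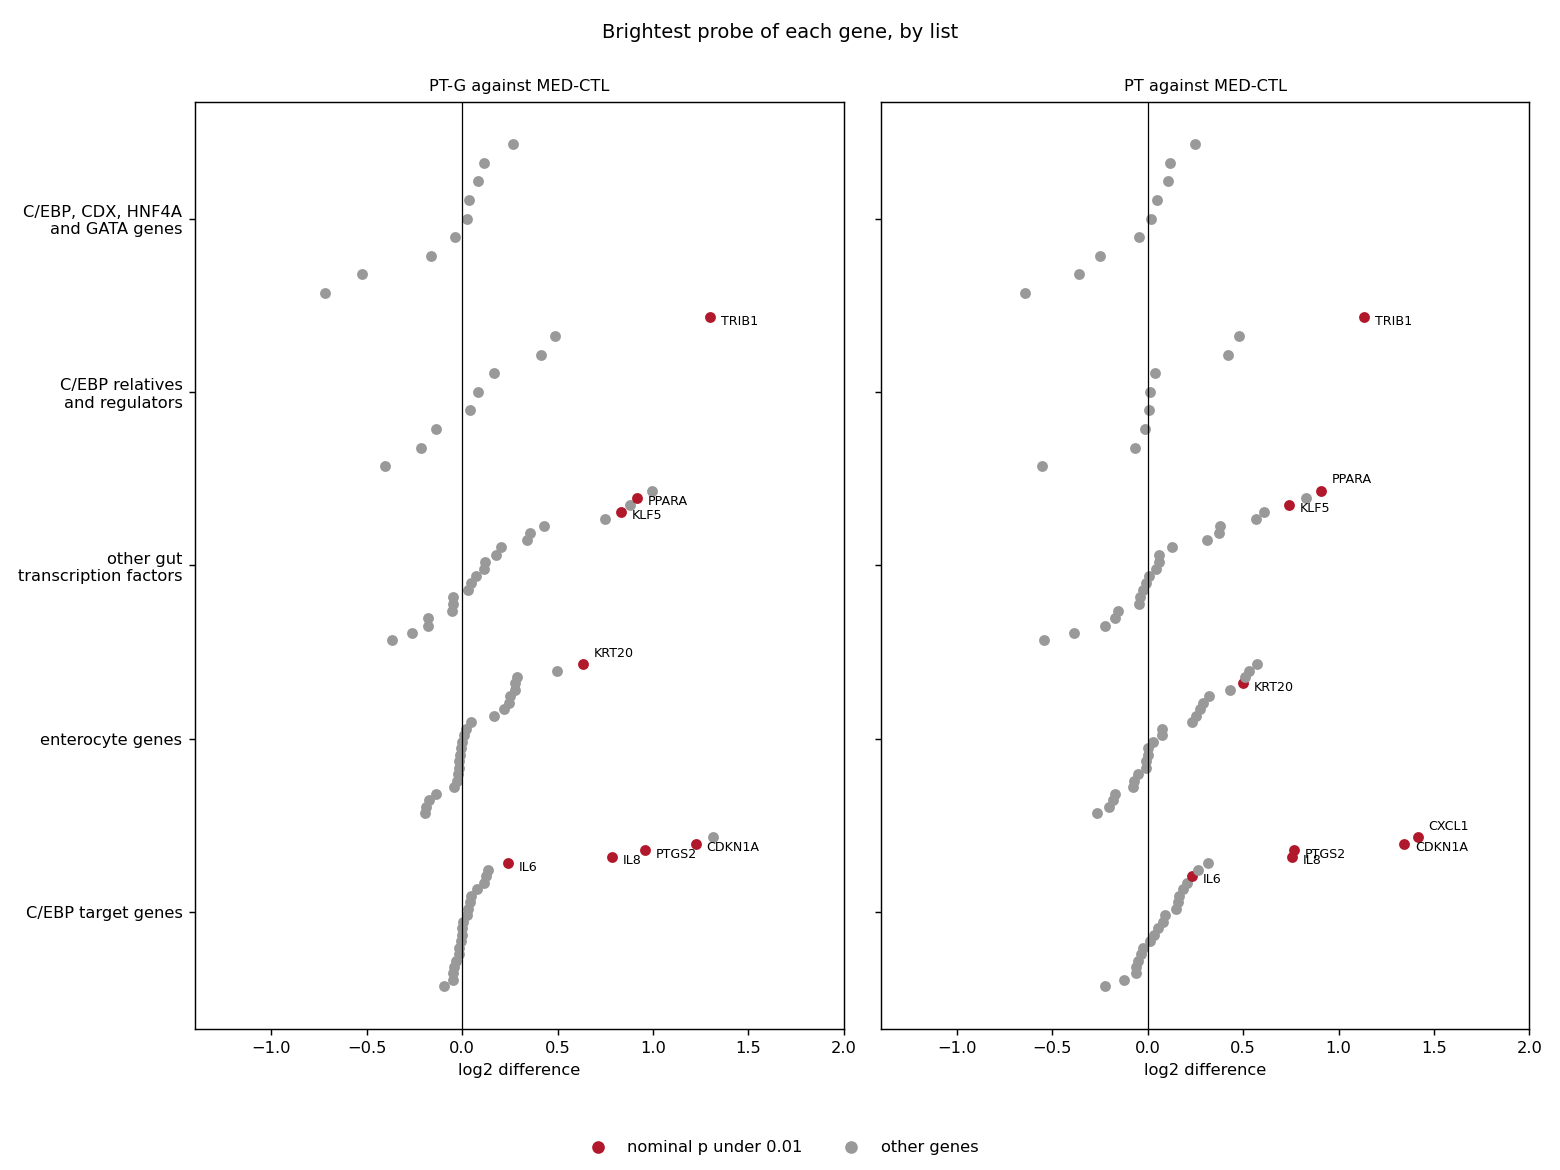
Log2 difference from MED-CTL (horizontal axes) of the brightest probe of each gene under PT-G and PT, for the 9 genes described and for the 4 lists, with genes of a list ordered by their value. Red points have a nominal p under 0.01 and carry their names, none of them among the 9 genes. IL8 and IL6 are drawn at their measured differences although they were not well above background on most MED-CTL arrays.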

How the data were processed

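The samples, 16 cultures of Caco-2 cells in 4 groups of 4, were grouped by the labels. The authors deposited scanner output with the intensity of every spot on a linear scale, of which the median foreground carries no background subtraction and no scaling between arrays. Beside it stand a processed signal from which background was subtracted and marks of control spots, of outliers and of signal well above background. The authors also deposited a table of log2 values, which is the log2 median foreground put through quantile normalization with the controls kept (to within 5e-09). Here the same normalization was run on the 43376 of 45015 spots that were not controls, 1774 spots marked as outliers were left out (0 of them of the 9 genes), and spots of a probe were averaged, which moved the genes' levels by at most 0.0375 from the deposited values.

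Of 41000 probes, the 40982 with at least 3 arrays in every group entered the linear model of limma (3.58.1, R 4.3.3) that the study's methods name (12 residual and 1.88 prior degrees of freedom, 2-sided, Benjamini-Hochberg adjustment within a comparison). CEBPB minus CEBPA was tested by exact permutation. Depth here means signal over background, and precision is limited by having 4 arrays a group. The members and gene lists were chosen with earlier results of these data known. Of the lists, 2 gut transcription factors and 1 leukocyte marker are not reported here and were left out of the lists' counts and medians, so a list's count of 0 does not cover them. All 9 genes are named. In the lists, genes with a nominal p under 0.01 in PT-G or PT against MED-CTL are named, at most 5 of smallest p, and genes named as not passing are examples. List genes and markers named from the model blocked by run, CLDN3, and the second probes of SAA2 and MUC2 were chosen after their values were seen. Deviations of same-numbered arrays from their group means correlated across probes with r of 0.395 to 0.857 for PT-G and MED-CTL, 0.262 to 0.707 for p31-43 and MED-CTL, −0.0054 to 0.411 for PT and MED-CTL and 0.0492 to 0.695 for PT-G and PT. By run, taken from file dates, they were 0.628 to 0.857, 0.538 to 0.707, −0.0054 to 0.620 and 0.0492 to 0.695. Alternatives were other background corrections (normexp with offset 50, or the processed signal at the 75th percentile), mean foreground, median scaling, the deposited table, a filter on dim probes, marked spots kept, blocks for replicate number, run, slide or period, array weights (statmod 1.5.0), an intensity trend, a fit of 2 groups alone and each array left out. The fit was tested on simulated data. Probe positions are those in the files, whose build is not given in the sources used here.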

Additional observations from a re-analysis of the deposited data

Results flagged for a closer look

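In 5 of the 64 sets of 4 arrays examined (15 probes and the CEBPB minus CEBPA difference in 4 groups), 1 array stood apart from the other 3 by Dixon's test for 4 samples at the 95% level, where chance gives about 3.2. On the CEBPA probe nearer the 5′ end, PT replicate 1 was low at 12.74, with the next PT array at 14.62, and PT-G replicate 3 was low at 9.87, with the next at 13.77. The latter is 1 of the 3 arrays of slide 3 that read near 10 on this probe. CEBPG was low on MED-CTL replicate 4 at 13.67, with the next at 14.09. The HNF4A probe of NM_000457 was low on PT-G replicate 4 at 6.69, with the next at 7.62. The GATA4 probe of NM_002052 was high on MED-CTL replicate 4 at 6.39, with the next at 6.20, close to background. None of these was weighed further, and their causes were not tested.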

How the results depend on the processing

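Without a block, the number of member probes past the nominal threshold was 0 for the 4 planned comparisons, and it stayed 0 under every alternative without a block except that leaving out MED-CTL replicate 3 gave 3 for PT-G against MED-CTL. Blocks gave, for PT-G against MED-CTL, 2 probes (period), 3 (run), 3 (replicate block) and 6 (slide), for PT against MED-CTL 1 (run), 1 (replicate block) and 2 (slide), and for p31-43 against MED-CTL 1 (replicate block, of CEBPA) and 1 (slide, of CEBPD). Over all probes these blocks gave 2397, 3755, 3110 and 5011 for PT-G against MED-CTL, 4217, 3481 and 4333 for PT, and 432 and 1527 for p31-43, against 1408, 1491 and 159 without a block. The arrays of PT and MED-CTL, and those of PT-G and PT, had a correlation near 0 in run 3, by number and by run. There the PT array lay on slide 5 and the MED-CTL and PT-G arrays on slide 3. In runs 1, 2 and 4 the r by run was 0.375, 0.620 and 0.411 for PT and MED-CTL. It was 0.182, 0.695 and 0.646 for PT-G and PT. By number, PT and MED-CTL replicate 1 also had an r near 0 (0.0326). The values thus do not show a pairing in every run of these 2 comparisons. For PT-G against p31-43 the count of 2 became 1 with the background-subtracted signal, 5 with the run and 6 with the slide as a block. Over all probes the run gave 3948 and the slide 4476 in this comparison, against 1528 without a block. For PT against p31-43 the count of 0 became 1 with the filter on dim probes, the intensity trend, the mean foreground or normexp, 2 with array weights, 2 groups alone or the period, 3 with the replicate block, 4 with the run and 5 with the slide. Over all probes PT against p31-43 gave 2080 with array weights, 2162 with the period and 2874 with the replicate block. It gave 3451 with the run and 4311 with the slide, against 1290 in the plain model. Leaving out 1 array gave 0 to 3 for PT-G against MED-CTL, 0 to 0 for the other 3 planned comparisons, 1 to 3 for PT-G against p31-43 (1 without p31-43 replicate 2, PT-G replicate 3 or PT-G replicate 4) and 0 to 2 for PT against p31-43 (2 without MED-CTL replicate 1 or 3). Over all probes this gave 1054 to 1685 for PT-G against MED-CTL. Against p31-43 it gave 1180 to 1776 for PT-G and 980 to 1495 for PT. The replicate block left PT-G against PT at 0 and gave 3 for PT-G against p31-43, with CDX2 added (limma, adjusted p = 0.0319).

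CEBPB minus CEBPA for PT against p31-43 was 0.643 with the background-subtracted signal, 0.645 with the mean foreground and 0.645 with normexp, each with an exact permutation p of 0.0571. Leaving out 1 array gave 0.335 to 0.827 for PT-G against MED-CTL, 0.149 to 0.641 for PT, −0.504 to −0.013 for p31-43, −0.0121 to 0.309 for PT-G against PT (below 0 without PT-G replicate 3), 0.641 to 0.963 for PT-G against p31-43 and 0.552 to 0.812 for PT against p31-43. CEBPA was lower under PT-G than in MED-CTL in all alternatives, by −0.73 to −0.34.

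Small differences changed sign. With median scaling CEBPG became 0.0501 (PT-G) and 0.0059 (PT) and CEBPB 0.0567 (p31-43). With array weights CEBPB became −0.0073 (PT-G) and −0.0667 (PT), CEBPD −0.0496 and HNF4A −0.0550 (PT-G), and CDX2 −0.17 (p31-43) and 0.0531 (PT-G against PT). CDX2 became −0.0244 with the slide as a block (p31-43), and HNF4A 0.0019 in the deposited table (PT-G against PT). Over the settings that leave out 1 array, the PT-G difference from MED-CTL ran from −0.0867 to 0.170 for CEBPB, −0.158 to 0.229 for CEBPD, −0.146 to 0.0164 for CEBPG and −0.0450 to 0.3002 for HNF4A. The PT difference ran from −0.148 to 0.129 for CEBPB, −0.154 to 0.0140 for CEBPG, −0.0431 to 0.302 for HNF4A and −0.00611 to 0.246 for GATA6. The p31-43 difference ran from −0.124 to 0.112 for CEBPB, −0.000322 to 0.201 for CEBPG, −0.248 to 0.338 for CDX2, −0.359 to 0.125 for the brightest HNF4A probe, −0.255 to 0.166 for the NM_000457 probe and −0.237 to 0.0259 for GATA6. Between PT-G and PT it was −0.329 to 0.338 for CDX2 and −0.187 to 0.125 for HNF4A. The cause was not tested in any of these.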

Other observations

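The genes whose pattern over the 16 arrays was most like that of a member, after the mean of each run was subtracted, were sought among 16864 genes well above background on every array. For CEBPA they were C14orf79 (r 0.98, plain r 0.92), C1orf69 (r 0.97, plain r 0.94) and CTF8 (r 0.97, plain r 0.95). For CDX2 they were MOSC1, UBTF and RXRB (r 0.96 each, plain r 0.90, 0.87 and 0.91). For GATA6 they included DCUN1D2 and POLR1B (r 0.96 each, plain r 0.60 and 0.72), for CEBPD SAC3D1 and C16orf33 (r 0.97 each), for CEBPG DTWD1 (r 0.92) and for the brightest HNF4A probe LRP1 (r 0.92). CEBPB had no gene as close, with ARL15 (r 0.85, plain r 0.52), TXNDC9 (r 0.80) and KIF13B (r 0.79). These values are a description of arrays that share runs and treatments.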
